A study of Mus musculus with 6 samples.

Results

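Nkg7, Cd79a, Cd79b, Gzmb and Cd7 are 5 genes known mainly from lymphocytes, and they are described here in mouse myeloid progenitors that lost the histone chaperone CAF-1. They are 5 of the 27998 genes in the deposited table. The set was chosen on these same data, because Nkg7 and Cd79a were higher in CAF-1 OFF cells, so the rise of these 2 genes is given as a description and supports nothing. The label of the set, genes that rise after CAF-1 depletion, held for Nkg7 and Cd79a only. Cd79b was present and was not higher, no UMI (unique molecular identifier, which stands for 1 captured transcript) of Gzmb was found in any library, and Cd7 had 1 UMI in all.

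The cells were iGMPs, immortalized granulocyte-macrophage progenitor-like cells of strain C57BI/6, with a Lys-GFP reporter and HOXA9 fused to an estrogen receptor domain (ER-HOXA9). Estradiol keeps the fusion protein active and the cells in self-renewal, and SCF came from conditioned medium whose share differed by batch. In the CAF-1 OFF arm, a clone with a LacO-controlled short hairpin RNA to Chaf1b received 500 µM IPTG for 48 or 96 h while estradiol was kept. In the HOXA9 OFF arm, a clone with a control hairpin (shCTRL) was cultured without estradiol for 48 or 96 h, and each arm has a library at 0 h with estradiol. Each group is 1 library of sorted live cells, the arms differ in their clone, and nothing was replicated, so no difference between libraries could be tested. Intervals below are 95% intervals for counting error only.

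CAF-1 deposits histones H3 and H4 on newly replicated DNA, and Chaf1b encodes its p60 subunit. NKG7 is a membrane protein of the cytotoxic granules of natural killer (NK) cells and T cells, where it takes part in granule release. CD79A and CD79B (Igα and Igβ) form the signalling pair of the B cell receptor: each carries an activation motif that recruits the kinase SYK, and the receptor needs both to reach the surface. Granzyme B, the product of Gzmb, is a protease that killer cells deliver into their targets, and CD7 is a surface receptor of early T and NK cells whose ligands belong to the SECTM1 family.

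Across the 6 libraries, between 473 and 1510 cells were kept and held between 3524285 and 5589486 UMIs per library. The median UMI count per cell was 5956 to 8660 in the uninduced and CAF-1 OFF libraries, and was lower in HOXA9 OFF, at 3535.5 (48 h) and 2043.5 (96 h). Of the deposited barcodes, 0.198% to 66.2% per library were over the study's limit of 10% mitochondrial UMIs and were left out. Among the kept cells, 16 barcode sequences occurred in more than 1 library and involved 32 of 5872 cells. Chaf1b, the targeted gene, was at 35.6 CPM (counts per 1000000 UMIs, from UMIs summed over the kept cells) before IPTG, 3.22 CPM after 48 h of it and 6.49 CPM after 96 h. It was 11.1-fold and 5.49-fold lower than at 0 h. In the control hairpin clone it was lower too, 3.38-fold after 48 h and 45.4-fold after 96 h without estradiol.

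The bases just before the start of the gene are shown for the members with an entry in the promoter table from RefSeq (build GRCm38.p6, the build the authors used): both genes that were higher, and Gzmb, which gave no UMI. Capitals mark matches to short motifs of blood cell transcription factors. Each sequence runs 5′ to 3′ on the strand of its gene and ends at the base before the annotated start.
Nkg7, chr7:43436888-43437137, + strand: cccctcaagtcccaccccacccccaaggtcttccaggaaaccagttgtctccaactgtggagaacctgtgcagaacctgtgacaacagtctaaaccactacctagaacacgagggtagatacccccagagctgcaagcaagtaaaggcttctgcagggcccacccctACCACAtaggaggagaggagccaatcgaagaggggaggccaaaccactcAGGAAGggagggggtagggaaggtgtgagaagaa
Cd79a, chr7:24897247-24897496, + strand: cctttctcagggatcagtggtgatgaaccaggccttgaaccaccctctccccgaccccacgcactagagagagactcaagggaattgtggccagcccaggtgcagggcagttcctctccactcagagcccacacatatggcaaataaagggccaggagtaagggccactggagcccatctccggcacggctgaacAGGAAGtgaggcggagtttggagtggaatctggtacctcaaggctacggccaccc
Gzmb, chr14:56262335-56262584, - strand: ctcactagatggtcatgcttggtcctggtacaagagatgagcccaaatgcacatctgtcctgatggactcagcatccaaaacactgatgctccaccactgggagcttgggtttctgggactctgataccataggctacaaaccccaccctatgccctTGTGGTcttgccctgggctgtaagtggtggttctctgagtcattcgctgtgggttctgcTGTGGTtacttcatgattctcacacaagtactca

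The ETS core AGGAAG, searched on both strands as all motifs were, occurred in the Nkg7 window and in the Cd79a window, beginning 34 and 55 bases before the start. It occurs in 29.5% of the 32851 promoter windows of the table. The RUNX core TGTGGT occurred in the Nkg7 window, as ACCACA, and at 2 places in the Gzmb window, and 14.0% of all windows hold it. The other ETS form CCGGAA (12.0% of windows), the C/EBP motif TTGCNNAA (9.56%), the EBF motif CCCNNGGG (11.8%) and the GATA motif AGATAA (9.99%) had no match in the 3 windows. These are matches of letters, not sites of binding.

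Nkg7 lies at chr7:43437138-43438246 and was by far the better measured of both genes that were higher. Before IPTG its level was 52.4 CPM (45.8 to 59.8, 221 UMIs), after 48 h of CAF-1 depletion 159 CPM (149 to 170, 891 UMIs), and after 96 h 289.6 CPM (275 to 304, 1562 UMIs). The HOXA9 OFF arm started from 59.7 CPM (52.5 to 67.5, 250 UMIs), held 17.9 CPM (14.5 to 21.9, 95 UMIs) after 48 h and gave no UMI among 3524285 after 96 h. The uninduced libraries were alike, 1.14-fold apart (0.946 to 1.37), and the libraries of the arms then separated in opposite directions.

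Against 0 h of its own arm, Nkg7 was 3.04-fold higher in CAF-1 OFF at 48 h (2.62 to 3.54) and 5.52-fold higher at 96 h (4.79 to 6.39). Between 48 and 96 h it was a further 1.82-fold higher (1.67 to 1.97). In HOXA9 OFF it was 3.34-fold lower at 48 h (2.62 to 4.27) and at least 70.1-fold lower at 96 h, taking 3 counts as the floor of a library with none. On the log2 scale of CPM + 10, on which genes were ranked, the ratios in CAF-1 OFF were 1.44 and 2.26. These placed Nkg7 at rank 68 and rank 50 from the top of the 10879 genes that averaged 1 CPM or more.

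Cd79a, at chr7:24897497-24901858, was scarce in all libraries. Its level was 1.66 CPM (0.668 to 3.42, 7 UMIs) before IPTG, 17.0 CPM (13.8 to 20.8, 95 UMIs) after 48 h of CAF-1 depletion and 31.9 CPM (27.3 to 37.0, 172 UMIs) after 96 h. Along the HOXA9 OFF arm it was 7.16 CPM (4.83 to 10.2, 30 UMIs), 6.03 CPM (4.12 to 8.51, 32 UMIs) and 1.42 CPM (0.461 to 3.31, 5 UMIs). The intervals of both induced CAF-1 OFF libraries lay above those of the other 4 libraries.

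The fold of Cd79a depended on which uninduced library was the reference. Against 0 h of its own arm it was 10.2-fold higher at 48 h (4.78 to 26.1) and 19.2-fold higher at 96 h (9.12 to 48.5), on 7 UMIs at 0 h. The uninduced library of the other clone held 4.31-fold more Cd79a (1.86 to 11.6). Against that library, CAF-1 OFF was 2.37-fold higher at 48 h (1.56 to 3.71) and 4.45-fold higher at 96 h (3.01 to 6.80). Nkg7 did not show this dependence, with 2.67-fold (2.32 to 3.09) and 4.85-fold (4.24 to 5.57) against the other clone. On the log2 scale of CPM + 10, Cd79a stood at 1.21 and 1.84 against its own arm, at rank 110 and rank 92 of 10879.

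Cd79b, the partner of Cd79a in the receptor, lies at chr11:106311341-106314562 and followed another course. Its level was 58.6 CPM (51.5 to 66.4, 247 UMIs) before IPTG, 44.5 CPM (39.2 to 50.4, 249 UMIs) after 48 h of CAF-1 depletion and 41.5 CPM (36.3 to 47.3, 224 UMIs) after 96 h. Along the HOXA9 OFF arm it was 45.8 CPM (39.6 to 52.8, 192 UMIs), 62.7 CPM (56.2 to 69.8, 333 UMIs) and 10.8 CPM (7.63 to 14.8, 38 UMIs). It was therefore present in uninduced cells of both clones, before either induction, and lowest after 96 h without HOXA9.

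At 96 h Cd79b was 1.41-fold lower in CAF-1 OFF than at 0 h (1.17 to 1.70). This is close to the distance between the uninduced libraries, of which the HOXA9 OFF one was 1.28-fold lower. Against the uninduced library of the other clone, Cd79b in CAF-1 OFF at 96 h was 1.10-fold lower, with a ratio interval (0.744 to 1.10) that includes no difference. In HOXA9 OFF it was 1.37-fold higher at 48 h (1.14 to 1.64) and 4.25-fold lower at 96 h (2.99 to 6.19). The mRNAs of the receptor pair were thus apart in CAF-1 OFF, with Cd79a higher and Cd79b not.

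Gzmb (chr14:56258836-56262334) had 0 UMIs in each of the 6 libraries. In CAF-1 OFF at 96 h a count of 0 allows up to 0.556 CPM, or up to 0.329% of 911 cells with a UMI, by the floor of 3 counts. The floors of the other libraries lay between 0.537 and 0.851 CPM. Cd7 (chr11:121036747-121039478) had 1 UMI in 1 cell, in HOXA9 OFF at 48 h, and none in the other 5 libraries. The ligand genes Sectm1a and Sectm1b, which lie beside Cd7, had 1 UMI and none, the former in CAF-1 OFF at 48 h. Neither Gzmb nor Cd7 could be placed by a fold.

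**Figure D1:**
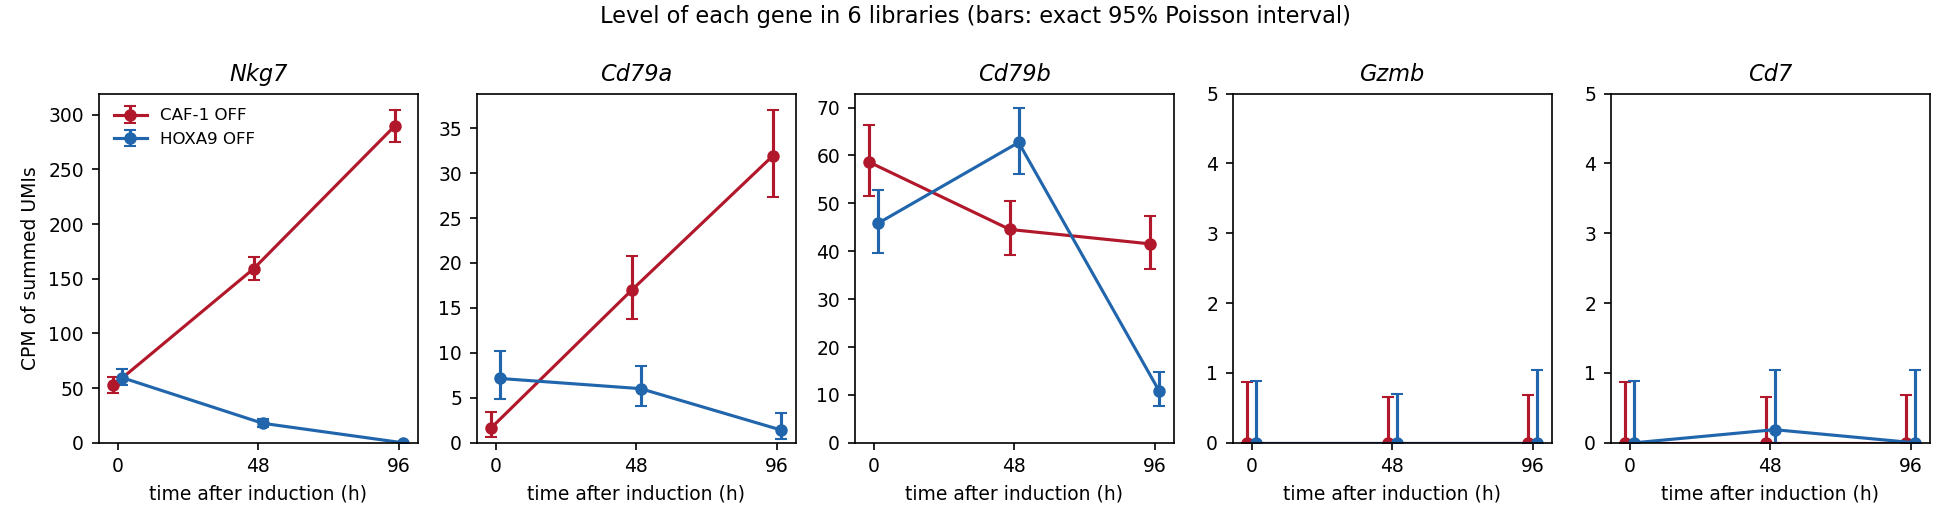
CPM of summed UMIs (linear y axes that differ between panels) against time after induction for each of the 5 genes, with 1 point per library and exact 95% Poisson intervals, CAF-1 OFF in red and HOXA9 OFF in blue. Nkg7 reaches 289.6 CPM from 52.4 and Cd79a reaches 31.9 CPM from 1.66 under CAF-1 depletion, Cd79b does not go up, and Gzmb and Cd7 stay at or beside 0.

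How common such changes were gives the scale. Of 10879 genes, 1.57% were at least 2-fold higher and 0.0368% at least 2-fold lower after 48 h of CAF-1 depletion, by the log2 ratio of CPM + 10. At 96 h the shares were 3.41% and 0.478%. Of the 5 members, 3 reached the minimum of 1 CPM, and 2 of them, Nkg7 and Cd79a, were higher at both times and none lower. Since these 2 genes chose the set, nothing is read from that count. In HOXA9 OFF, 7.44% of genes were at least 2-fold higher and 10.4% lower at 48 h, and 12.8% and 22.6% at 96 h. Of the 3 members, Nkg7 was lower at 48 h, and Nkg7 and Cd79b at 96 h, which also shares its 0 h library with the earlier comparison. The median log2 ratio of all 10879 genes was 0.03 (48 h) and -0.02 (96 h) for CAF-1 OFF, and -0.11 and -0.22 for HOXA9 OFF.

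To see whether a few cells or many carried the transcripts, cells with a UMI were counted, first as sequenced. Nkg7 was found in 158 of 647 cells (24.4%) at 0 h, 473 of 927 (51.0%) at 48 h and 612 of 911 (67.2%) at 96 h in CAF-1 OFF. The highest count in a single cell was 5, 10 and 13 UMIs. Cd79a was found in 7 cells (1.08%), 86 cells (9.28%) and 158 cells (17.3%), with at most 3 UMIs in a cell, and 146 of the 158 positive cells at 96 h held a single UMI. Cd79b was found in 30.1%, 22.9% and 21.2% of the cells.

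Because depth differed between libraries, each cell was then thinned at random to 1300 UMIs, and shallower cells were left out (9 to 20 in the CAF-1 OFF libraries, 1 to 134 in HOXA9 OFF). At that depth Nkg7 was found in 5.53% (3.88 to 7.61), 17.8% (15.3 to 20.4) and 26.1% (23.2 to 29.0) of cells along the CAF-1 OFF arm. For HOXA9 OFF the shares were 5.51% (3.63 to 7.97), 1.74% (1.12 to 2.58) and 0 of 1376 cells, which allows up to 0.218%. The share of cells with Cd79a was 0.316% (0.0383 to 1.14), 2.32% (1.44 to 3.52) and 4.55% (3.28 to 6.12) in CAF-1 OFF. That of Cd79b was 8.85% (6.75 to 11.3), 7.39% (5.77 to 9.29) and 4.66% (3.38 to 6.24). The shares keep the order of the CPM values in CAF-1 OFF for all 3 genes.

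The UMIs of Nkg7 lay widely over the cells in CAF-1 OFF at 96 h. The mean there was 0.334 Nkg7 UMIs per 1300, and a Poisson spread of that mean would give 28.4% of cells with a UMI, against 26.1% measured. The share of cells with 2 or more was 5.65%, against 4.47% from the Poisson spread, and the variance was 1.25 times the mean. For Cd79a the measured and Poisson shares of cells with a UMI were both 4.55%, and the variance was 1.00 times the mean. With a mean of 0.0466 UMIs per cell, such values come out near Poisson for most spreads. They therefore cannot show how Cd79a lay over the cells. At 0 h, the variance of Nkg7 was 1.10 times the mean in CAF-1 OFF and 1.02 times in HOXA9 OFF. The means were low there too (0.0600 and 0.0572), so the same limit holds. The series holds 1 cell line and no cell type that should lack these genes, so the share that free RNA gives was not measured, and its part in the results was not tested.

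Pf4, a megakaryocyte chemokine, and Elane, the neutrophil elastase gene of early granulocytes, are found together in CAF-1 OFF cells. At 96 h, Pf4 was found in 82.8% and Elane in 59.6% of the thinned cells, and both in 52.0% (48.7 to 55.3). To ask whether Nkg7 sat in these cells or in others, co-detection was set beside the product of the single shares, which is what unrelated genes would give. At 48 h Pf4 and Elane were both found in 17.9% (15.4 to 20.5), above their product of 11.7%. At 96 h their product was 49.4%, inside the interval above. Nkg7 was found together with Pf4 in 22.4% of cells (19.7 to 25.3), and the product was 21.6%. Because Pf4 was in most cells, this share had little room above its product. It could not pass the 26.1% of cells that held Nkg7. Together with Elane it was found in 15.9% (13.5 to 18.4), and the product was 15.5%. In 14.3% of cells (12.1 to 16.8) all 3 were found, and the product of the Nkg7 share with the share of cells holding both others was 13.5%.

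Seen from the positive cells, Pf4 and Elane were both found in 129 of 235 cells with Nkg7 (54.9%, 48.3 to 61.4) and in 340 of 667 cells without it (51.0%, 47.1 to 54.8). At 48 h they were found in 17.4% of 161 cells with Nkg7 and in 18.0% of 746 cells without. For Cd79a at 96 h the shares were 22 of 41 positive cells (53.7%, 37.4 to 69.3) and 447 of 861 negative cells (51.9%, 48.5 to 55.3). Cells with Nkg7 or Cd79a thus held Pf4 and Elane at shares whose intervals overlapped those of cells without. For Nkg7 this was so at both times.

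Where pairs of members were counted in thinned cells of CAF-1 OFF at 96 h, the intervals included the product as well. Nkg7 and Cd79a were both found in 12 of 902 cells at 96 h (1.33%, 0.689 to 2.31), and the product was 1.18%. Cd79a and Cd79b, whose proteins act as a pair, were both found in 3 cells (0.333%, 0.0686 to 0.969), and the product was 0.212%. In cells as sequenced, this pair was found in 48 of 911 (5.27%, 3.91 to 6.93), above its product of 3.67%. The pairs with Nkg7 had intervals that included their products there too. Depth differs between cells as sequenced, and its part was not tested. At this depth an association of moderate size between the scarce members would not be detectable. At 0 h in CAF-1 OFF, where Pf4 was in 3.00% and Elane in 9.32% of thinned cells, none of 633 thinned cells held Nkg7 with both. Only 2 of them held Pf4 with Elane, and the product for all 3 genes was 0.0175%. The count of 0 is therefore no contrast with 96 h.

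**Figure D2:**
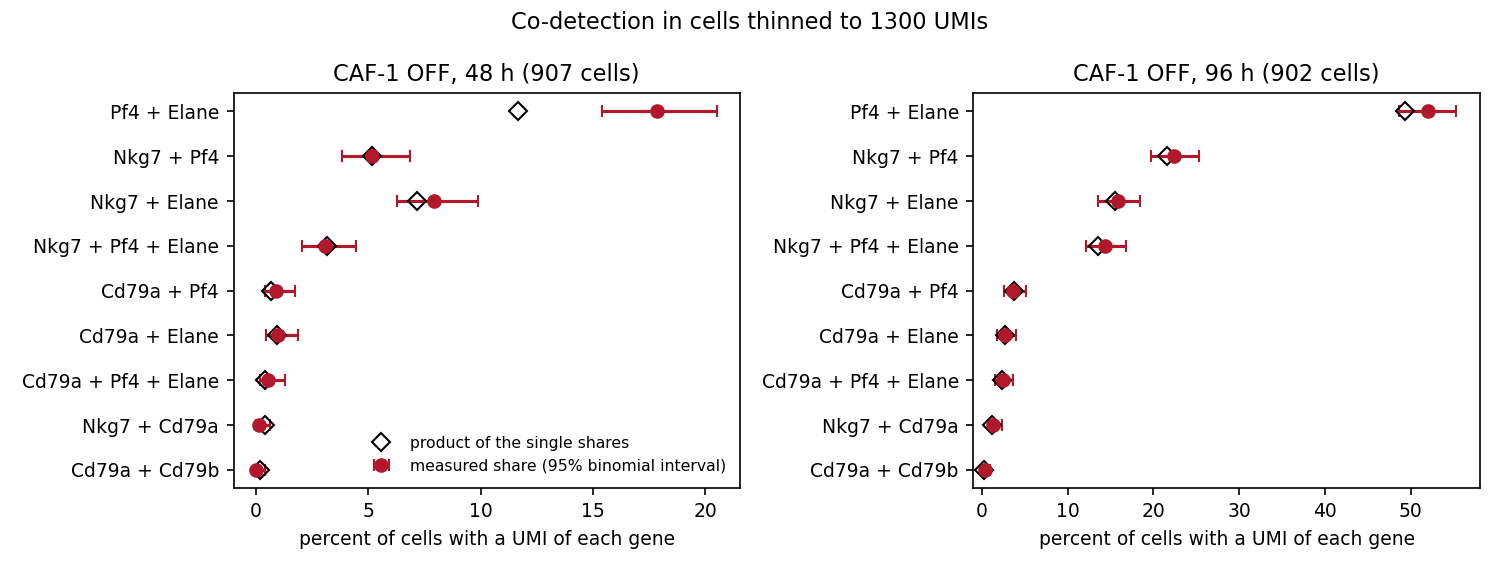
Percent of CAF-1 OFF cells, thinned to 1300 UMIs, with a UMI of each gene of a combination at 48 and 96 h, as measured (red, with exact 95% binomial intervals) and as the product of the single shares (open diamonds; for 3 genes, the member's share times that of Pf4 with Elane). The intervals of the combinations with Nkg7 or Cd79a include their products, while Pf4 with Elane at 48 h, at 17.9%, lies above its product of 11.7%.

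Levels of Nkg7 in cells with and without a UMI of 11 other blood cell genes showed where it was richer. In CAF-1 OFF at 96 h, Nkg7 was at 275 CPM in the 755 cells with Cpa3, the mast cell carboxypeptidase, and at 162 CPM in the 147 cells without, a ratio of 1.70 (1.17 to 2.55). With Mcpt8, a basophil protease, it was at 283 against 199 CPM, a ratio of 1.42 (1.09 to 1.88). At 48 h the ratio was 2.00 (1.46 to 2.78) for Cpa3 and 1.46 (1.07 to 2.02) for the progenitor antigen Cd34. In the uninduced library of the HOXA9 OFF arm the ratio for Cpa3 was 0.235 (0.0269 to 0.941), on 27 Nkg7 UMIs.

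The other genes gave ratios whose intervals included 1 in CAF-1 OFF at 96 h. These were 1.28 (0.921 to 1.82) for Pf4, 1.06 (0.839 to 1.35) for Elane, 0.940 (0.586 to 1.44) for the megakaryocyte integrin Itga2b and 0.965 (0.737 to 1.25) for the erythroid carbonic anhydrase Car2. For the granule protein Prg2, the granulocyte progenitor gene Ms4a3, Cd34 and the proliferation gene Mki67 they lay between 0.766 and 1.23.

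In HOXA9 OFF at 48 h the few Nkg7 UMIs lay in one portion of the cells. The 541 cells with Ms4a3 held 31.3 CPM of Nkg7 and the 835 cells without held 2.76 CPM, a ratio of 11.3 (3.40 to 59.1) on 22 and 3 UMIs. Cells with the neutrophil gene S100a8 held 3.13 times as much as cells without (1.20 to 9.58). For Prg2, which was found in 766 cells, the ratio was 1.19 (0.502 to 2.97). In the same library Cd79b was 2.07-fold higher in cells with S100a8 (1.35 to 3.23) and 1.67-fold higher in cells with Elane (1.06 to 2.58). For Cd79a, the ratios in both induced CAF-1 OFF libraries had intervals that included 1 for all genes compared. Cd79b in CAF-1 OFF at 96 h was at 46.3 CPM in cells with Ms4a3 and 13.4 CPM in cells without, a ratio of 3.45 (1.35 to 11.3). Over the members and libraries, 144 such ratios were made, so that some intervals would miss 1 by counting error alone.

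**Figure D3:**
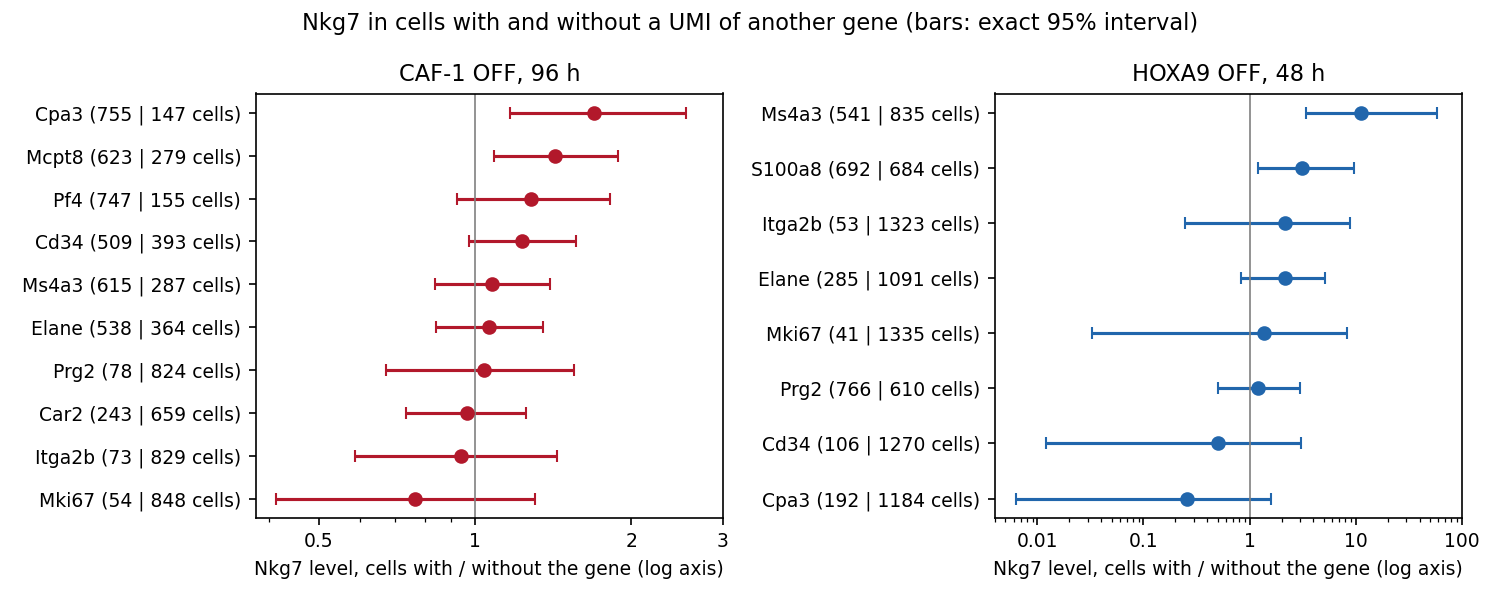
Ratio of the Nkg7 level in thinned cells with a UMI of another gene to that in cells without (log x axes that differ between panels, exact 95% intervals), with the number of cells with and without each gene, in CAF-1 OFF at 96 h (red) and HOXA9 OFF at 48 h (blue). Cpa3 (1.70) and Mcpt8 (1.42) in CAF-1 OFF, and Ms4a3 (11.3) and S100a8 (3.13) in HOXA9 OFF, have intervals above 1.

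The genes whose levels ran most like those of the members over the 6 libraries were found by Pearson's r of log2(CPM + 10), among 4789 genes that averaged 20 CPM or more. The 6 points share their clones and 0 h states by arm, so r is a description. For Nkg7 they included 4930519L02Rik, Slc35b1, Atg12 and Fut8, with r between 0.992 and 0.998. 4930519L02Rik stood at 54.8, 136 and 217 CPM along the CAF-1 OFF arm, against 47.7, 16.9 and 1.42 CPM along the HOXA9 OFF arm. Fut8, the fucosyltransferase that adds core fucose to N-glycans, stood at 70.5, 122 and 188 CPM, and at 92.1, 50.3 and 22.4 CPM.

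For Cd79a the most alike were Gm5914, Ampd2, Pgap2, Gstm1 and Ing1, with r between 0.960 and 0.983. Gstm1, a glutathione S-transferase, stood at 99.4, 491 and 837 CPM along the CAF-1 OFF arm, against 194, 304 and 95.1 CPM along the HOXA9 OFF arm. Over the 902 thinned cells of CAF-1 OFF at 96 h no gene ran closely with Nkg7. The highest of 1672 genes were Rsl1d1, Dlg2, Snrpe, Mcpt8 and Hgf, with r from 0.0986 to 0.129, and the lowest r was -0.106.

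The neighbours of the members gave the local picture. Of the 5 annotated genes on each side of each member, 50 in all, 32 were in the table and 16 reached 1 CPM. None of the 16 was at least 2-fold higher or lower in CAF-1 OFF at 96 h. Siglecf, close to Nkg7, went from 11.2 to 23.7 CPM (log2 ratio of 0.67 on that scale), and Etfb, also close, was at 562 and 476 CPM. Rps19, next to Cd79a, was at 6387 and 7611 CPM, and Arhgef1 on its other side at 15.9 and 22.2 CPM. Icam2, beside Cd79b, was at 184 and 202 CPM. Of the scarcer genes, Tcam1, also near Cd79b, was at 1.90 and 4.45 CPM, and Gm9844, near Cd79a, at 10.7 and 4.63 CPM.

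The wider lymphocyte genes were then read from lists, each with its count of genes at least 2-fold higher or lower among those reaching 1 CPM, and read against the shares of all genes given above. B lineage genes came first. Of 15 genes matched, 6 reached the minimum, and in CAF-1 OFF none of the 6 was at least 2-fold higher or lower at 48 or 96 h (median log2 ratios of 0.20 and -0.31). In HOXA9 OFF, 4 of 6 were lower at both times, namely Ebf1, Vpreb3, Igll1 and Cd72.

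Uninduced iGMPs of both clones already held early B lineage transcripts. Ebf1, the factor that specifies the B lineage, was at 211, 174 and 116 CPM along the CAF-1 OFF arm. Along the HOXA9 OFF arm it was 272, 1.51 and 0.284 CPM. Igll1, part of the surrogate light chain of the pre-B cell receptor, was at 315, 589 and 265 CPM along the CAF-1 OFF arm, against 350, 4.52 and 0 CPM along the HOXA9 OFF arm. Vpreb1, its partner there, was at 5.22, 6.26 and 3.71 CPM for CAF-1 OFF. The related gene Vpreb3 was at 24.0, 39.2 and 16.1 CPM for CAF-1 OFF and the B cell surface gene Cd72 at 44.6, 43.1 and 21.1 CPM.

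Markers that define later B cells were at or near 0. Ms4a1 (CD20), Fcmr, Blk and Pou2af1 had no UMI in any library, and Cd22 and Pax5 had none at 0 h in either arm. The summed level of the 15 B lineage genes was 600.3, 856 and 429.9 CPM along the CAF-1 OFF arm and 685, 20.9 and 18.2 CPM along the other. Along the CAF-1 OFF arm most of it was Igll1 and Ebf1. Beside the higher Cd79a of the induced CAF-1 OFF libraries, the sum was thus above its 0 h value at 48 h and below it at 96 h. Bank1, a B cell scaffold protein, was at 0.475 CPM before and 5.56 CPM after 96 h of CAF-1 depletion, with 2.15 and 13.9 CPM in the other arm. In plain CPM, Bank1 was 11.7-fold higher in CAF-1 OFF at 96 h (2.97 to 101), on 2 UMIs at 0 h.

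Genes that carry the signal of the B cell receptor were expressed throughout, as many are in myeloid cells. Of 14 genes, 13 reached the minimum, and in CAF-1 OFF none was at least 2-fold higher or lower at either time (median 0.03 at 96 h). Syk, the kinase that docks on CD79A and CD79B, was at 15.7, 17.9 and 13.7 CPM along the CAF-1 OFF arm, against 12.6, 25.2 and 57.6 CPM along the HOXA9 OFF arm. Lyn, the kinase that first phosphorylates them, was at 32.0, 35.6 and 45.0 CPM for CAF-1 OFF. The adaptor Blnk was at 2.14, 5.73 and 7.42 CPM, and Grb2 at 33.0, 54.7 and 74.0 CPM. In plain CPM, Blnk was 3.47-fold (1.66 to 8.14) and Grb2 2.24-fold (1.84 to 2.74) higher at 96 h than at 0 h. In HOXA9 OFF, Syk, Lyn, the phosphatase Ptpn6 and the adaptor Dok3 were at least 2-fold higher at 96 h and none was lower.

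Early lymphoid genes were read in the same way. Of 21 genes, 13 reached the minimum, and their median after 96 h of CAF-1 depletion was 0.20, with 1 gene, Rag2, at least 2-fold lower. Rag2, part of the recombinase of antigen receptor genes, was at 57.2, 33.5 and 1.11 CPM for CAF-1 OFF (51.4-fold lower at 96 h, 23.3 to 141), and at 51.3, 0.188 and 0 CPM in HOXA9 OFF. Dntt, which adds bases at antigen receptor joints, was at 14.0, 32.7 and 20.2 CPM along the CAF-1 OFF arm, against 6.44, 0 and 0 CPM along the HOXA9 OFF arm. Flt3, a receptor of lymphoid-primed progenitors, was at 99.4, 99.5 and 63.0 CPM and the factor Sox4 at 90.6, 74.6 and 47.6 CPM in CAF-1 OFF.

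T lineage genes were scarce apart from Thy1 and Cd28. Of 18 genes matched, 8 reached the minimum, and in CAF-1 OFF Thy1 alone was at least 2-fold higher, at 9.49, 35.8 and 36.0 CPM (3.79-fold at 96 h, 2.68 to 5.47). The uninduced library of the other clone held 40.8 CPM of Thy1, more than either induced CAF-1 OFF library. The defining genes Cd3e, Cd4, Cd8a, Zap70, Bcl11b and Cd2 had no UMI in any library. Others did: Cd3d reached 8.23 CPM (29 UMIs) and Cd3g 1.70 CPM (6 UMIs) in HOXA9 OFF at 96 h. In the CAF-1 OFF libraries each of these had at most 2 UMIs, and so had Cd247 and Cd8b1 in any library. Lat, an adaptor of the T cell receptor that mast cells also use, was at 2.37, 5.01 and 8.53 CPM along the CAF-1 OFF arm, against 8.59, 2.82 and 0 CPM along the HOXA9 OFF arm. In plain CPM, Lat was 3.59-fold higher in CAF-1 OFF at 96 h (1.79 to 7.99). Cd28 was at 0.949, 2.15 and 6.12 CPM along the CAF-1 OFF arm, against 0.477, 35.8 and 11.6 CPM along the HOXA9 OFF arm. It was 6.45-fold higher in CAF-1 OFF at 96 h in plain CPM (2.29 to 25.0), on 4 UMIs at 0 h. In HOXA9 OFF, Cd28 was at least 2-fold higher and Thy1 at least 2-fold lower at both times.

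The company that Nkg7 keeps in NK cells was largely missing. Of 17 NK and cytotoxic effector genes, 3 reached the minimum, and none was at least 2-fold higher or lower in CAF-1 OFF. Ncr1, Gzma, Tbx21 and Ifng had no UMI in any library, and Prf1, the perforin gene, had none at 0 h. The summed level of the 17 genes was 0.949, 5.73 and 12.0 CPM in CAF-1 OFF. Klrd1 (CD94), a receptor of NK cells, was at 0.475, 3.22 and 6.86 CPM there (2, 18 and 37 UMIs), and Klrb1c (NK1.1) at 0, 1.43 and 3.71 CPM (0, 8 and 20 UMIs). In plain CPM, Klrd1 was 14.5-fold higher at 96 h than at 0 h (3.73 to 124). Klrb1c did not reach the minimum. Klrd1 was at 0.716, 1.69 and 1.42 CPM in HOXA9 OFF. Ccl5, a chemokine of activated lymphocytes and other cells, reached 253 CPM in HOXA9 OFF at 96 h, where Nkg7 had no UMI.

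The machinery that makes and moves granules is shared by killer cells and granulocytes. Of 13 genes, 12 reached the minimum. On the scale of CPM + 10, none was at least 2-fold higher or lower in CAF-1 OFF, with medians of 0.41 and 0.54. Srgn, the proteoglycan core of granules, was at 1103, 1453 and 1901 CPM, and the granule membrane gene Cd63 at 786, 1058 and 1534 CPM. Rab27a, a GTPase of granule release, was at 9.73, 22.2 and 23.5 CPM and its effector Unc13d at 19.7, 26.1 and 30.0 CPM. In HOXA9 OFF, where Nkg7 was lower, 7 of the 12 were at least 2-fold higher at 96 h and 1, Srgn, was lower. Stx11, a syntaxin of granule fusion, was at 2.85, 7.69 and 11.9 CPM along the CAF-1 OFF arm, against 2.86, 57.6 and 169 CPM along the HOXA9 OFF arm. In plain CPM, Rab27a was 2.42-fold (1.69 to 3.53) and Stx11 4.17-fold (2.23 to 8.48) higher in CAF-1 OFF at 96 h.

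The proteases of the gene cluster that holds Gzmb were read next. Of 14 genes of the granzyme and mast cell protease cluster, 5 had a UMI in any library and 3 reached the minimum. Ctsg, the cathepsin G gene of granulocytes, was at 3472, 4131 and 5951 CPM along the CAF-1 OFF arm, against 3309, 833 and 11.6 CPM along the HOXA9 OFF arm. Mcpt8 was at 40.1, 373 and 1159 CPM along the CAF-1 OFF arm, against 164, 17.5 and 0 CPM along the HOXA9 OFF arm. Cma1, the mast cell chymase, was at 59.2 CPM in the uninduced library of the HOXA9 OFF arm and at 0 CPM in that of the CAF-1 OFF arm. Gzmc, Gzme and Gzmf, like Gzmb, gave 0 UMIs, and Gzmd gave 1.

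Genes of mast cells, basophils and plasmacytoid dendritic cells, which share some lymphoid genes, were read beside Nkg7 and Cd79a. Of 10 mast cell or basophil genes reaching the minimum, Cpa3 and Mcpt8 were at least 2-fold higher in CAF-1 OFF at both times and none lower. The summed level of the 12 matched genes was 370.4, 1544 and 4107 CPM along the CAF-1 OFF arm and 919.5, 549 and 89.9 CPM along the other. This sum, most of which was Cpa3 and Mcpt8 at 96 h of CAF-1 depletion, ran in the same direction as Nkg7, and its part in the result was not tested. The median log2 ratio of the 10 genes was 0.50 there. Kit, the SCF receptor gene, was lower, at 82.8 CPM before and 55.6 CPM after 96 h. In plain CPM, Hdc was 2.27-fold (1.59 to 3.29) and Gata2 1.62-fold (1.29 to 2.05) higher at 96 h than at 0 h. Prss34 was 7.03-fold higher (2.52 to 27.2), on 4 UMIs at 0 h. Of the defining genes of the list, Fcer1a, Tpsb2, Tpsab1 and Cma1 were at 0 in CAF-1 OFF at 0 h. The Fc receptor chain Ms4a2 was at 0.237, 0.895 and 4.08 CPM (17.2-fold at 96 h, 2.78 to 709, on 1 UMI at 0 h). The uninduced library of the other clone held more Hdc, Prss34 and Ms4a2 (34.6, 17.2 and 22.7 CPM) than CAF-1 OFF at 96 h. The uninduced HOXA9 OFF library held 2.35-fold more Cpa3 and 4.10-fold more Mcpt8 than the uninduced CAF-1 OFF library, with Nkg7 1.14-fold apart.

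Of 6 plasmacytoid dendritic genes reaching the minimum, Irf7, an interferon-induced factor, was higher in CAF-1 OFF at 96 h, at 1.90 and 19.8 CPM. It was higher in HOXA9 OFF as well and reached more there, at 1.43, 13.9 and 314 CPM. Their defining Siglech stayed under the minimum. Cox6a2 was at 94.0, 14.0 and 84.0 CPM for CAF-1 OFF, lower at 48 h only, and the summed level of the 9 genes was 259.8, 237 and 337 CPM.

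**Figure D4:**
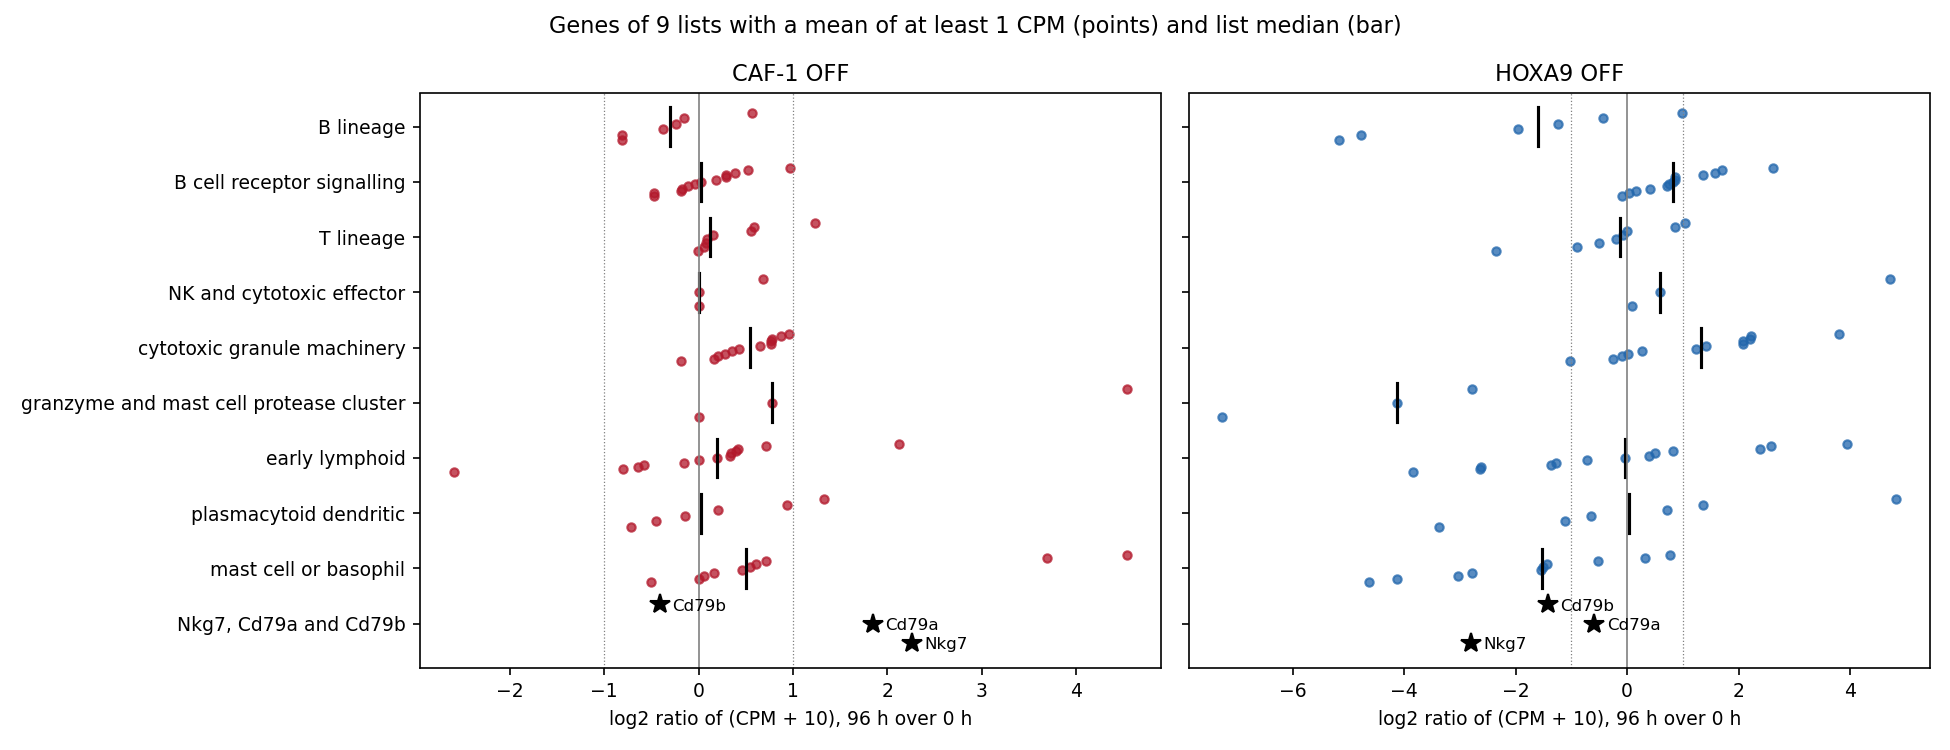
Log2 ratio of CPM + 10 at 96 h over 0 h for genes of 9 lists that reached a mean of 1 CPM (points, with the list median as a bar) and for Nkg7, Cd79a and Cd79b (stars), in CAF-1 OFF and HOXA9 OFF, on x axes that differ. In CAF-1 OFF no B lineage point passes 1 or -1 (dotted lines), Nkg7 is at 2.26 and Cd79a at 1.84, and in HOXA9 OFF Nkg7 is at -2.80.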

How the data were processed

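Single-cell RNA-seq libraries (10x Genomics Chromium, 3′ ends) of 6 mouse samples were analysed, 1 per group, with groups taken from the sample titles. The authors mapped reads to GRCm38 (mm10) with Cell Ranger (3.0.1 in the submitters' processing notes) and deposited raw UMI counts per cell for 27998 genes, without normalization. Scanpy 1.4.6 and Seurat 3.0.1 are also named there. The notes give no role for them.

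From these counts, cells with 200 to 6000 detected genes and at most 10% mitochondrial UMIs were kept, as in the study, which left 5872 of 7821 barcodes. UMIs were summed per library and scaled to a common total (CPM, counts per 1000000 UMIs). Genes were compared as log2 ratios of CPM + 10 with a fold of at least 2, among the 10879 genes that averaged 1 CPM or more. CPM have exact Poisson intervals, folds exact conditional binomial intervals and shares exact (Clopper-Pearson) binomial intervals, all at 95% and for counting error only. A count of 0 was bounded by 3 counts. For shares, cells were thinned to 1300 UMIs. No doublet caller was run, beyond the upper limit on genes and an alternative without the 5% of cells with the most UMIs. With 1 library per group no p-value was computed.

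The members and the gene lists were chosen with earlier results of these data known. Genes named in the text are the members, genes of the lists, the 5 genes most like each member, neighbours, the targeted Chaf1b, and Pf4, Elane and other lineage or proliferation genes used to split cells. Of 139 genes in 10 lists, 133 were matched by symbol. A few genes that these rules name are not reported here. The calculations were tested on simulated data. Python 3.11.15, numpy 2.4.6, scipy 1.17.1, pandas 2.3.3, R 4.3.3 and edgeR 4.0.16 (TMM factors for an alternative scaling, with no test) were used.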

Additional observations from a re-analysis of the deposited data

Results flagged for a closer look

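Nkg7 differed in direction between the arms. Its log2 ratio of CPM + 10 at 48 h over 0 h was 1.44 for CAF-1 OFF but -1.32 for HOXA9 OFF, and 2.26 but -2.80 at 96 h. Each group is 1 library and the arms are different clones, so the difference was not tested.

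Barcodes left out by the limits on genes and mitochondrial UMIs also held Nkg7. In CAF-1 OFF at 96 h the 155 removed barcodes gave 196 CPM (147 to 257, 52 UMIs), above the 29.3 CPM (16.8 to 47.6, 16 UMIs) of the 463 barcodes removed at 0 h.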

How the results depend on the processing

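Of 216 values recomputed under alternatives, 130 stayed within the counting error of the value given or, for counts, within 1.5 times, and 86 moved further. The sign changed for Cd79a in HOXA9 OFF at 48 h, a value under 2-fold, from -0.10 to 0.02 with TMM scaling. No paired analysis was possible because each group is 1 library, and no replicate could be left out. For CAF-1 OFF, the log2 ratio of Nkg7 became 1.03 (48 h) and 1.73 (96 h) with 50 CPM added, 2.44 at 96 h with 1 CPM added, and 1.23 and 1.97 with at most 5% mitochondrial UMIs, which kept 262 and 165 cells. For Cd79a the ratios at 48 and 96 h were 2.76 and 3.63 with 1 CPM added, 0.38 and 0.66 with 50 CPM added, which took both under 2-fold, and 1.47 and 2.18 with totals that leave out mitochondrial and ribosomal protein genes. Against the uninduced library of the other arm, a reference chosen after seeing the data, they were 0.65, under 2-fold, and 1.29. Cd79b went to -0.60 and -0.73 at the 5% mitochondrial limit, and to -0.033 and -0.12 against the other arm. In HOXA9 OFF, adding 50 CPM took Nkg7 at 48 h (-0.69) and Cd79b at 96 h (-0.66) under 2-fold, and adding 1 CPM took Cd79a at 96 h (-1.75) past it. Members at least 2-fold higher numbered 1 at each time with a minimum of 20 CPM, which Cd79a does not reach, and at a 4-fold limit 0 at 48 h and 1 at 96 h. The share of CAF-1 OFF cells with Nkg7 at 96 h was 67.2% without thinning, 46.0% at 2600 UMIs and 5.65% where at least 2 UMIs were asked for, and the share with Nkg7, Pf4 and Elane 58.6%, 33.2% and 2.11%. That triple share over its product ranged from 1.03 to 1.28 over the settings run. Among all genes, a 1.5-fold limit gave 526 (48 h) and 959 (96 h) higher for CAF-1 OFF (main 171 and 371), with 87 and 556 lower (main 4 and 52). At a 4-fold limit 25 and 72 were higher and 1 lower at each time, and at 20 CPM 2 were lower at 48 h. In HOXA9 OFF at 96 h the higher genes went from 1391 to 865 at 20 CPM. At the 1.5-fold limit HOXA9 OFF had 1490 and 2151 genes higher and 2469 and 3712 lower, and at the 4-fold limit 214 and 524 higher and 155 and 795 lower. Except where a lower limit or minimum sets it, the cause was not tested. Depth limits Gzmb and Cd7, with 0 and 1 UMI, and the folds of Cd79a, which rest on 7 UMIs at 0 h in CAF-1 OFF.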
